A study of Mus musculus with 6 samples.

Results

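The integrated stress response is the programme by which cells lower general protein synthesis and raise a set of rescue genes when amino acids, haem or protein folding fail. It was followed here through 10 genes from the deposited count table of 54532 genes: Eif2ak4, Ppp1r15a, Atf4, Atf5, Ddit3, Trib3, Chac1, Nupr1, Ddit4 and Sesn2. They were chosen by name, with earlier results of these data known. RNA sequencing was used in the series to look for how idelalisib acts on T cells. The libraries came from splenic CD4+ T cells of C57BL/6 mice, cultured for 72 h under T helper 1 (Th1) conditions. In the control group (3 libraries) the cells had no drug named in the labels, and in the idelalisib group (3 libraries) they received idelalisib, which inhibits the delta isoform of phosphoinositide 3-kinase (PI3K). The labels call the 3 libraries of each group biological replicates. The sources used here give neither the dose nor the solvent, nor whether the replicates came from separate mice, so p-values cover the spread between these libraries. All 10 genes passed the filter on low counts, as did 14530 genes in all.

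In this pathway, kinases that sense stress phosphorylate the initiation factor eIF2, which slows translation of most messages but favours that of ATF4, a basic leucine zipper (bZIP) transcription factor. ATF4 and its partners then switch on genes of amino acid supply, redox balance and feedback, among them a phosphatase subunit that reverses the phosphorylation. In activated T cells, ATF4 is known for supporting amino acid uptake and biosynthesis, and mTORC1, a kinase complex downstream of PI3K, is known to raise its output. Because ATF4 is controlled largely at translation, transcript counts measure neither its protein nor the phosphorylation of eIF2.

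The 10 genes did not all move the same way. With idelalisib 6 of the 10 genes were lower (Atf4, Atf5, Ddit3, Ppp1r15a, Nupr1 and Ddit4), 1 was higher (Sesn2) and 3 did not pass the test (Trib3, Chac1 and Eif2ak4), at a Benjamini-Hochberg adjusted p under 0.05 in edgeR's quasi-likelihood test. Of all genes tested 44.6% passed in either direction, 22.2% as higher and 22.4% as lower. The median log2 fold change (idelalisib over control) was -0.59 over the 10 genes and 0.01 over all genes tested. The groups did not overlap for 7 of the 10 genes, against 54.6% of all genes tested. Because RNA was measured in bulk, fewer cells of a type and less RNA per cell cannot be told apart.

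**Figure D1:**
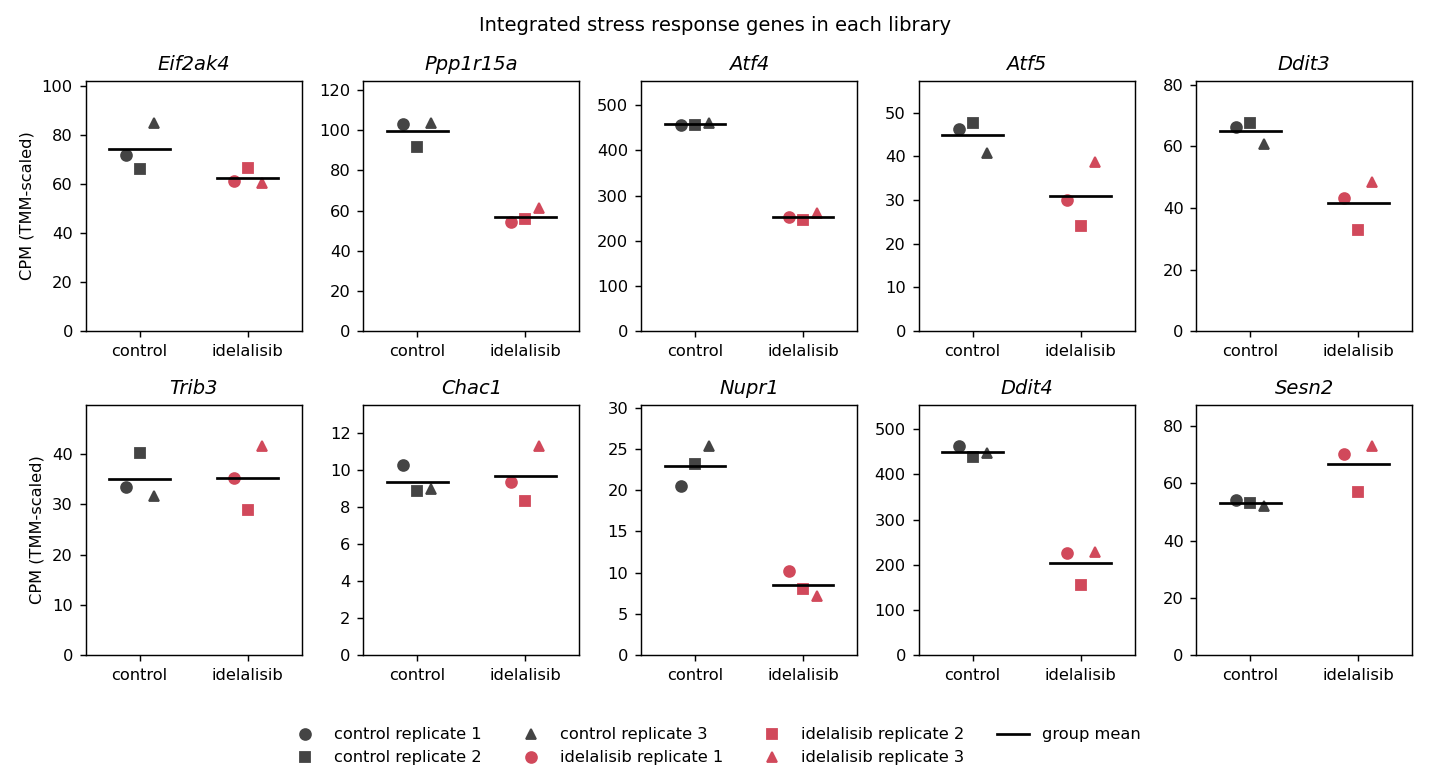
CPM (counts per library total, scaled with factors from the trimmed mean of M-values, TMM) of the 10 genes in each of the 6 libraries; each panel starts at 0, each point is a library, its shape gives the replicate number and bars are group means. All 3 idelalisib libraries lie below all 3 control libraries for Ppp1r15a, Atf4, Atf5, Ddit3, Nupr1 and Ddit4, above them for Sesn2, and overlap them for Eif2ak4, Trib3 and Chac1.

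Total counts ranged from 13372318 to 16770452 per library. The mitochondrial share of counts was 1.85 to 2.04% in control and 1.84 to 2.26% in idelalisib libraries. On the second principal component of log2 CPM, which held 11.8% of the variance, idelalisib replicate 2 lay away from its group. It was also the lowest idelalisib library for 7 of the 10 genes, all but Nupr1, Eif2ak4 and Ppp1r15a, and values without it are given below for Eif2ak4, Ddit3, Atf5, Ddit4, Sesn2 and Slc38a2. The 9 markers of CD4+ T cells and Th1 polarisation, among them Cd3e, Cd4 and Tbx21, were all detected and summed to 3423 to 3514 CPM in control and 2957 to 3215 CPM in idelalisib libraries, with 2 higher and 2 lower. Ifng, the interferon gamma gene, fell from 388 ± 29.0 to 146 ± 14.8 CPM and Lck, a T cell receptor kinase gene, from 609 ± 16.9 to 461 ± 44.1 CPM. Cd3g rose from 121 ± 6.32 to 154 ± 7.97 CPM and Cd3e from 147 ± 4.36 to 175 ± 8.88 CPM (SD, n = 3), the call of Cd3e being lost without control replicate 1 (adjusted p = 0.0772 by edgeR) or control replicate 3 (0.0871). Of 11 B cell markers 9 were tested and 6 were higher with idelalisib (Cd79a, Cd79b, Pax5, Bank1, Blk and Cd22). Their levels were low, from Blk at 0.204 and 0.822 CPM to Cd22 at 2.62 and 4.71 CPM. Ms4a1 and Cr2, not tested, had lower means with idelalisib. The sum of the 11 markers moved from 51.9 to 53.04 CPM in control up to 60.2 to 74.8 CPM in idelalisib libraries. Most of it was Ighm at 43.4 ± 1.24 and 51.0 ± 9.30 CPM (adjusted p = 0.125 by edgeR, and 0.0102 without idelalisib replicate 1). The sum of 8 CD8 T and NK cell markers moved from between 16.2 and 20.1 up to between 24.3 and 30.3 CPM, with 3 of 5 tested higher and Ncr1 at 0. The 16 myeloid markers summed to 57.1 to 59.8 CPM in control and 124 to 144 CPM in idelalisib libraries, with 2 of 4 tested higher and 1 lower. Most of that sum was Ly6g, at 38.8 ± 2.77 and 117 ± 11.2 CPM (SD, n = 3), and Cd68, at 16.7 ± 0.438 and 10.5 ± 2.23 CPM. Mpeg1, a macrophage gene, had the largest fold change of the myeloid markers tested, from 0.322 ± 0.246 to 4.57 ± 2.54 CPM (a log2 fold change of 3.75, adjusted p = 0.000112 by edgeR). The myeloid markers not tested all averaged under 1 CPM in both groups, and they differed in direction. Lyz2 was at 0.130 and 0.620 CPM, Adgre1 at 0.0238 and 0.0435 CPM and Siglech at 0. Itgam, at 0.286 and 0.123 CPM, and Itgax, at 0.243 and 0.0854 CPM, had lower means with idelalisib. S100a8 and S100a9 were at 0 in control and at 0.0907 and 0.0199 CPM in idelalisib libraries. The 9 erythroid and platelet markers summed to 6.86 to 7.99 CPM in control and 11.3 to 18.6 CPM in idelalisib libraries, with 2 of 4 tested higher. These were the platelet genes Itga2b, from 5.14 ± 0.317 to 9.55 ± 2.28 CPM, and Pf4, from 0.322 ± 0.255 to 2.17 ± 1.33 CPM. The part of these cells in the results below was not tested.

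Promoters of ATF4 targets often carry the site that ATF4 binds together with a C/EBP-type partner, the C/EBP-ATF response element, and this element was searched in promoter windows running from 250 bases before to 50 after each RefSeq start site (GRCm38.p6). All 10 genes matched a window, with 12 windows in all. The element was searched as TGATGNAA on both strands, and 3 of the 12 windows held it, those of Chac1, Nupr1 and Trib3, against 3.97% of all 32851 windows. The stretches are shown because these 3 genes, each with a match of this element, differed in outcome. Nupr1 had the largest fall of the set, and Chac1 and Trib3 did not pass the test. The matches differ in their letters and in their distance from the start site, and elements outside the windows were not searched. The element is in capitals, on the strand opposite to the gene in each case, and each line reads 5′ to 3′ along the gene.
Chac1: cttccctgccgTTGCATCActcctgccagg
Nupr1: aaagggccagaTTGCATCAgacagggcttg
Trib3: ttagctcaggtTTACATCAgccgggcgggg
The Chac1 stretch is chr2:119351038-119351067 on the plus strand, and its element lies 193 to 186 bases before the start site. The Nupr1 stretch is chr7:126625562-126625591 on the minus strand, and its element lies 110 to 103 bases before the RefSeq start site, which is downstream of the 5′ end that the count table gives for the gene. The Trib3 stretch is chr2:152344028-152344057 on the minus strand, and its element lies at bases 15 to 22 after the start site.

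A palindromic cyclic AMP response element (TGACGTCA), the class of site bound by CREB and ATF factors, was found in the Ppp1r15a window alone among the 10 genes and in 1.79% of all windows. It lies 12 to 5 bases before the start site, within chr7:45526262-45526291 on the minus strand, and is shown in capitals.
Ppp1r15a: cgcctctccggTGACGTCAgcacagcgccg
The core of the hypoxia response element (ACGTG, either strand) was in the windows of Ddit3, Ddit4, Nupr1 and Ppp1r15a and in 19.6% of all windows. In Ddit4, a gene known to be induced by hypoxia, it lies 187 to 183 bases before the start site, at chr10:59951942-59951968 on the minus strand.
Ddit4: gaacgttgcgaACGTGcgcccggtgcc
No match of the ER stress response element or of a FOXO site (TGTTTAC) was found in the 12 windows. Of all windows 0.119% and 3.65% held them, so 12 windows are too few to read this absence as a trait of these genes. Among the 10 genes no match overlapped a match of another motif. A match of letters is a description and shows no binding.

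Levels were compared between genes as TPM, the counts divided by gene length and scaled to a common total per library. TPM carries no TMM factor, so changes of a gene between groups are given from CPM and the edgeR test. Trib3, for example, was at 35.1 and 35.2 CPM but at 49.8 and 57.2 TPM. In control libraries Ddit4 and Atf4 were the most abundant of the set by a wide margin, at 773 ± 27.5 and 585 ± 5.60 TPM (SD, n = 3). Ddit3 at 114, Ppp1r15a at 102 and Atf5 at 68.0 TPM followed. Trib3 at 49.8 and Sesn2 at 46.1 TPM overlapped in range, as did Eif2ak4 at 30.1 and Nupr1 at 27.6 TPM, and Chac1 was lowest at 17.3 TPM. With idelalisib the order changed in the middle and at the bottom. Ddit4 at 399 ± 79.9 and Atf4 at 371 ± 6.56 TPM now overlapped in range. From Ddit3 at 83.8 through Ppp1r15a at 67.2, Sesn2 at 66.4 and Trib3 at 57.2 down to Atf5 at 53.6 TPM, each gene overlapped the next. Nupr1, at 11.6 TPM, lay below Chac1, at 20.4 TPM, without overlap. The length used for Nupr1 was 2514 bases, of a gene whose counted 5′ end lies upstream of its RefSeq start site. A shorter length would raise its TPM in both groups, so its rank among the 10 genes depends on that length. In CPM, not divided by length, the idelalisib means of Nupr1 and Chac1 were 8.44 and 9.66.

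**Figure D2:**
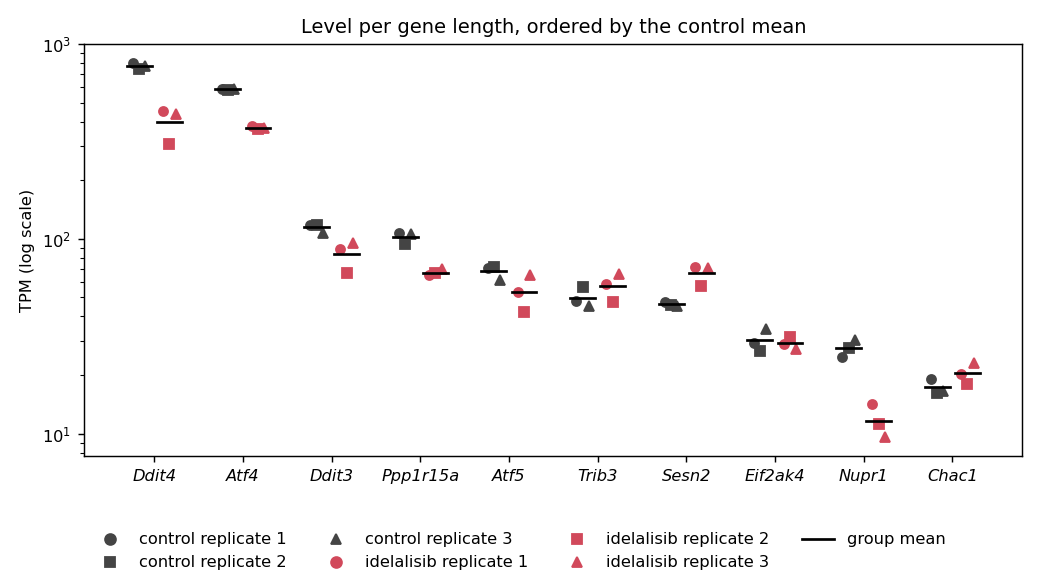
Level of each gene in TPM (log axis) in the 6 libraries, ordered by the control mean; points are libraries and bars are group means. Ddit4 and Atf4 stand above the other 8 genes in both groups, and Nupr1 moves from above Chac1 in control to below it with idelalisib. The rank of Nupr1 depends on the gene length used.

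The arm that sets and resets eIF2 phosphorylation was represented by a kinase and a phosphatase subunit. Eif2ak4 encodes GCN2, the kinase that senses uncharged transfer RNA (ENSMUSG00000005102, mm10 chromosome 2, 118388618 to 118475234). It was at 71.8, 66.2 and 85.1 CPM in control libraries 1 to 3 and at 61.2, 66.6 and 60.4 CPM in idelalisib libraries 1 to 3. The groups overlapped, since idelalisib replicate 2 lay just above control replicate 2. Its log2 fold change of -0.25 (SE 0.10) did not pass the test (adjusted p = 0.0591 by edgeR). The gene passed without control replicate 2 (log2 fold change -0.33, adjusted p = 0.0335 by edgeR) or idelalisib replicate 2 (-0.28, 0.0191), and its adjusted p reached 0.475 when libraries were scaled by total count alone.

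Ppp1r15a encodes GADD34, the stress-induced subunit that directs protein phosphatase 1 to eIF2 and so ends the response (ENSMUSG00000040435, chromosome 7, 45522916 to 45526268). The control libraries had 103, 91.8 and 104 CPM and the idelalisib libraries 54.2, 55.7 and 61.2 CPM. Every idelalisib library was below every control library, and the spread within each group was small against the gap. The gene fell 1.74-fold (log2 fold change -0.80, SE 0.09, adjusted p = 8.53e-06 by edgeR), from 99.5 ± 6.67 to 57.0 ± 3.67 CPM (SD, n = 3). An exon of Tulp2 on the opposite strand shares 12 bases with it, 0.409% of its exonic bases.

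The 3 transcription factors of the set, all bZIP proteins, fell. Atf4, the central factor of the response (ENSMUSG00000042406, chromosome 15, 80255184 to 80257541), had 455, 456 and 461 CPM in control libraries and 253, 245 and 261 CPM in idelalisib libraries. The replicates of each group lay within a few percent of each other, the tightest of the 10 genes in both groups. Atf4 fell 1.81-fold (log2 fold change -0.85, SE 0.07, adjusted p = 9.34e-07 by edgeR), and its log2 fold change lay between -0.87 and -0.70 under all 15 alternative settings.

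Ddit3 encodes CHOP, a bZIP factor induced by ATF4 and known for promoting cell death under lasting stress (ENSMUSG00000025408, chromosome 10, 127290774 to 127296288). It was at 66.4, 67.7 and 60.8 CPM in control libraries and at 43.2, 32.8 and 48.6 CPM in idelalisib libraries. The groups did not overlap, and idelalisib replicate 2 was the lowest. Ddit3 fell 1.56-fold (log2 fold change -0.64, SE 0.12, adjusted p = 0.000812 by edgeR), and without idelalisib replicate 2 the log2 fold change was -0.49. A second entry of the same symbol, 105 bases long and inside the first on the same strand, had 0 counts in all 6 libraries. The 105 shared bases are 6.13% of the exonic bases of Ddit3, and exons of Mars on the opposite strand share a further 68 bases.

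Atf5, a bZIP factor controlled at translation like ATF4 and known for the mitochondrial stress response (ENSMUSG00000038539, chromosome 7, 44812256 to 44816658), was at 46.3, 47.7 and 40.8 CPM in control libraries. The idelalisib libraries had 30.1, 24.1 and 38.6 CPM, so that idelalisib replicate 3 came close to control replicate 3. Atf5 fell 1.45-fold (log2 fold change -0.54, SE 0.14, adjusted p = 0.00843 by edgeR). Its log2 fold change was -0.38 without idelalisib replicate 2 and -0.72 without idelalisib replicate 3, and it passed the test in both. Exons of Nup62 and of Il4i1 on the opposite strand each share 82 bases with it, 4.11% of its exonic bases.

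Of the stress-induced effectors, Trib3 and Chac1 did not pass the test and Nupr1 fell. Trib3 encodes a pseudokinase that binds ATF4 and CHOP and restrains AKT signalling in some cells (ENSMUSG00000032715, chromosome 2, 152337422 to 152344032). It had 33.4, 40.2 and 31.7 CPM in control libraries and 35.2, 28.8 and 41.6 CPM in idelalisib libraries. The groups overlapped, with means of 35.1 ± 4.52 and 35.2 ± 6.37 CPM (SD, n = 3). The log2 fold change was 0.01 (SE 0.13, adjusted p = 0.975 by edgeR), and its sign differed between settings.

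Chac1 encodes an enzyme that degrades glutathione and is among the most responsive ATF4 targets in many cells (ENSMUSG00000027313, chromosome 2, 119351229 to 119354381). The control libraries had 10.3, 8.85 and 9.01 CPM and the idelalisib libraries 9.35, 8.35 and 11.3 CPM. Idelalisib replicate 2 was the lowest of all 6 libraries and idelalisib replicate 3 the highest. The log2 fold change was 0.05 (SE 0.16, adjusted p = 0.838 by edgeR), on 118 to 189 counts per library.

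Nupr1, a small stress-induced nuclear protein that acts with other transcription regulators (ENSMUSG00000030717, chromosome 7, 126623249 to 126630861), showed the largest fold change of the set. It was at 20.5, 23.1 and 25.3 CPM in control libraries and at 10.1, 8.0 and 7.17 CPM in idelalisib libraries. Every control library had more than any idelalisib library, with no overlap. Nupr1 fell 2.72-fold (log2 fold change -1.44, SE 0.15, adjusted p = 6.29e-06 by edgeR), and 5.95% of all genes tested had a larger absolute log2 fold change. Of the 3 genes with the C/EBP-ATF element printed above, Nupr1 fell while Chac1 and Trib3 did not pass the test.

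The last pair of genes feed into mTORC1, the kinase complex that couples growth to nutrients and growth factors, and moved in opposite directions. Ddit4 encodes REDD1, which inhibits mTORC1 through the TSC complex (ENSMUSG00000020108, chromosome 10, 59949669 to 59951834). It had 462, 438 and 447 CPM in control libraries and 226, 154 and 229 CPM in idelalisib libraries. All idelalisib libraries lay far below the control libraries, with idelalisib replicate 2 the lowest. Ddit4 fell 2.21-fold (log2 fold change -1.147, SE 0.13, adjusted p = 2.07e-05 by edgeR), and without idelalisib replicate 2 the log2 fold change was -0.98.

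Sesn2 encodes sestrin 2, a leucine-binding protein that restrains mTORC1 through the GATOR complexes (ENSMUSG00000028893, chromosome 4, 132492032 to 132510501). It was at 54.3, 53.04 and 52.0 CPM in control libraries and at 70.4, 57.0 and 72.9 CPM in idelalisib libraries. The groups did not overlap, but idelalisib replicate 2 lay close to the controls. Sesn2 rose 1.26-fold (log2 fold change 0.33, SE 0.10, adjusted p = 0.0147 by edgeR). The adjusted p was 0.0513 without control replicate 2, 0.0625 without control replicate 3 and 0.0545 without idelalisib replicate 1, so its call depends on each of these libraries. Without idelalisib replicate 2 the log2 fold change was 0.44 (adjusted p = 0.000143 by edgeR).

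**Figure D3:**
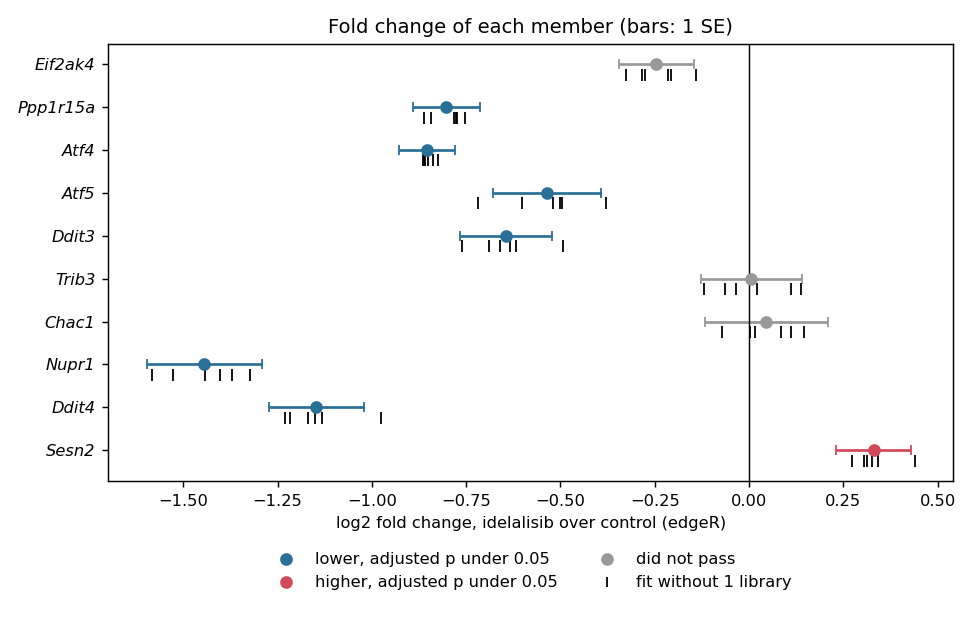
Log2 fold change of each gene, idelalisib over control (edgeR, 3 libraries per group); bars are 1 SE, black ticks are fits without 1 library and colour gives the call. The ticks stay below 0 for all 6 lower genes and for Eif2ak4, above 0 for Sesn2, and fall on both sides of 0 for Trib3 and Chac1.

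Ratios of TPM within a library do not depend on how libraries are scaled, and 10 such ratios were computed, chosen after the values of the genes had been seen. With 3 libraries against 3 an exact permutation test cannot go below p = 0.1, and a ratio whose groups do not overlap reaches it, as 7 of the 10 did. Trib3 over Atf4 was 0.0815, 0.0979 and 0.0762 in control and 0.155, 0.130 and 0.177 in idelalisib libraries, higher in 3 of 3 (two-sided exact permutation p = 0.1, 0.143 adjusted over the 10 ratios). Chac1 over Atf4 was likewise higher in every idelalisib library, with means of 0.0549 ± 0.00674 there and 0.0295 ± 0.00256 in control (SD, n = 3). Ppp1r15a over Atf4 was at 0.182, 0.162 and 0.181 in control and at 0.172, 0.182 and 0.188 in idelalisib libraries, and the groups overlapped (exact permutation p = 0.5). Ddit3 over Atf4 and Atf5 over Atf4 overlapped as well (exact permutation p = 0.3 for each). Nupr1 over Atf4 went from 0.0471 to 0.0313 on average, and Ddit4 over Atf4 from 1.32 to 1.07, both without overlap. The largest difference of the 10, on the log2 scale, was in Ddit4 over Sesn2, at 16.8, 16.4 and 17.05 in control against 6.35, 5.35 and 6.21 in idelalisib libraries.

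**Figure D4:**
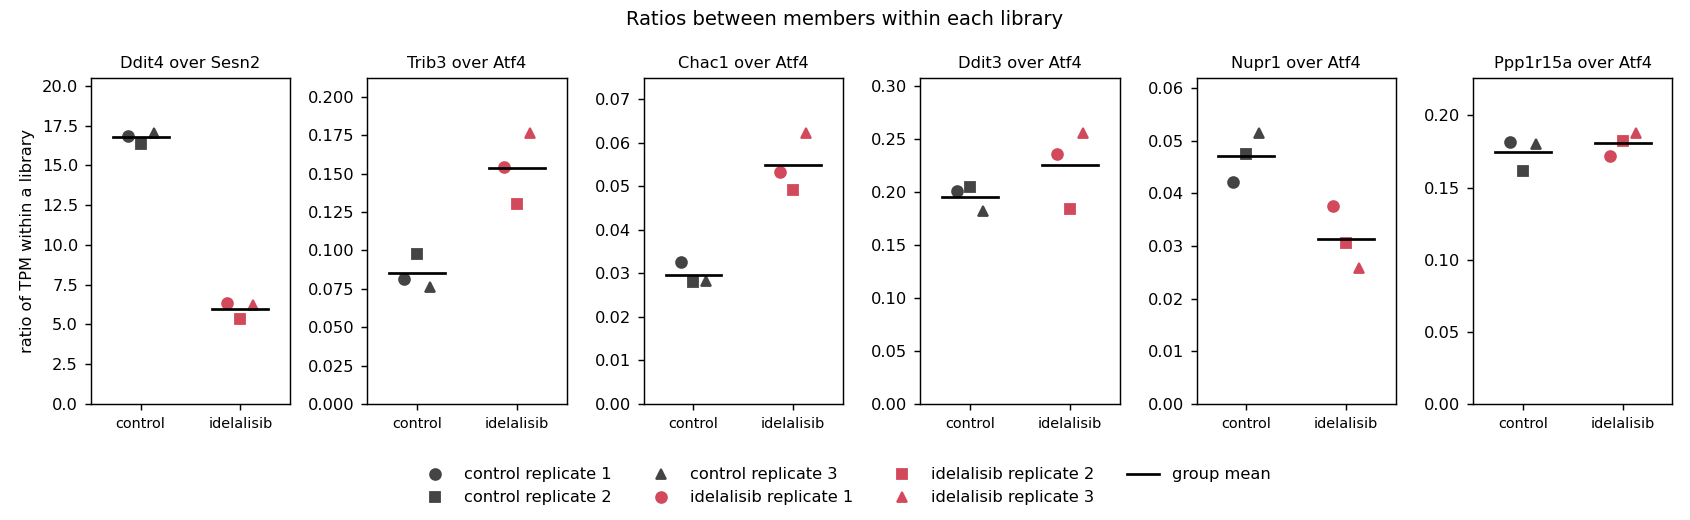
Ratios of TPM between pairs of genes within each library; each panel starts at 0, points are libraries and bars are group means. Ddit4 over Sesn2 and Nupr1 over Atf4 are lower in every idelalisib library, Trib3 over Atf4 and Chac1 over Atf4 are higher in every idelalisib library, and Ddit3 over Atf4 and Ppp1r15a over Atf4 overlap.

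The wider machinery around these genes was read from lists of related genes. Of 21 genes for the other eIF2 kinases, eIF2, its exchange factor eIF2B and their regulators, 7 were lower, 1 was higher and 13 did not pass (median log2 fold change -0.14). The share that passed was 38.1%, below the 44.6% of all genes tested. Scaled by total count alone the split was 4 lower and 4 higher. The other kinases of the pathway differed among themselves. Eif2ak2, which encodes the double-stranded RNA sensor PKR and is induced by interferon, rose from 23.2 ± 1.70 to 83.4 ± 13.7 CPM (a log2 fold change of 1.84, SE 0.12, adjusted p = 7.93e-08 by edgeR). Eif2ak3, which encodes the ER stress sensor PERK, fell from 134 ± 8.71 to 71.8 ± 6.20 CPM (a log2 fold change of -0.90, SE 0.09, adjusted p = 3.83e-06 by edgeR). Eif2ak1, the haem-regulated kinase gene, chosen after its values were seen, was at 49.3 ± 3.43 and 53.4 ± 1.43 CPM and did not pass (adjusted p = 0.309 by edgeR, and 0.0225 scaled by total count alone). Eif2a, an initiation factor distinct from eIF2, fell by 0.67 on the log2 scale.

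Close relatives of the 10 genes moved in both directions. Of 9 tested paralogs 4 were higher and 3 lower, a share of 77.8% that passed (5 higher and 1 lower scaled by total count alone). Among these paralogs, Eif2ak1, Eif2ak2, Eif2ak3 and Ppp1r15b were already counted in the eIF2 list. Chac2, the paralog of Chac1, rose from 2.47 ± 0.403 to 4.92 ± 0.759 CPM (a log2 fold change of 0.99, SE 0.24, adjusted p = 0.00385 by edgeR). Chosen after their values were seen, Trib2 and Trib1, the paralogs of Trib3, had log2 fold changes of 0.85 and 0.51, and Sesn3, a paralog of Sesn2, had -0.34 (edgeR adjusted p = 1.58e-05, 0.0126 and 0.0108). The call of Trib1 was lost without control replicate 3 (adjusted p = 0.0737 by edgeR) or idelalisib replicate 1 (0.0557), and that of Sesn3 without control replicate 3 (0.0564) or scaled by total count alone (0.133). Ppp1r15b, the constitutive counterpart of Ppp1r15a, also chosen after its values were seen, was lower by a smaller margin, at -0.39 (SE 0.09, adjusted p = 0.00428 by edgeR, and 0.0558 scaled by total count alone).

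Of 19 tested bZIP partners and related stress factors 5 were lower, 0 were higher and 14 did not pass in edgeR (3 lower and 5 higher scaled by total count alone). The share that passed was 26.3%, below the 44.6% of all genes tested. At an unadjusted p under 0.05 1 was higher, and DESeq2 and limma-voom each gave 0 higher. Jdp2, a repressor of the AP-1 family, fell from 6.32 ± 1.15 to 2.28 ± 0.703 CPM. Atf3, a stress-induced factor downstream of ATF4, fell from 50.1 ± 3.34 to 33.5 ± 3.13 CPM (a log2 fold change of -0.58, SE 0.10, adjusted p = 0.000344 by edgeR). Creb3l2, an ER-bound bZIP factor, fell by 0.41 on the log2 scale.

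More of the genes known as ATF4 targets were lower than higher. In the amino acid supply list 18 of 36 genes were lower, 3 were higher and 15 did not pass (median log2 fold change -0.23), and scaled by total count alone 13 were lower and 6 higher. Cars, the cysteinyl-tRNA synthetase gene, fell from 304 ± 12.1 to 148 ± 7.96 CPM (a log2 fold change of -1.04, SE 0.08, adjusted p = 2.84e-07 by edgeR). Slc38a2, a transporter of small neutral amino acids, fell from 669 ± 97.4 to 302 ± 108 CPM (a log2 fold change of -1.14, adjusted p = 0.0222 by edgeR). Its call was lost without control replicate 1 (adjusted p = 0.0505) or idelalisib replicate 3 (0.113) and with no filter on low counts (0.0781), while without idelalisib replicate 2 the log2 fold change was -1.47 (1.22e-08). Slc43a1, a transporter of large neutral amino acids, went the other way, from 1.38 ± 0.495 to 4.06 ± 0.435 CPM (a log2 fold change of 1.56, SE 0.29, adjusted p = 0.000693 by edgeR).

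In the list of other ATF4 and CHOP targets 14 of 29 tested genes were lower, 2 higher and 13 did not pass (12 lower and 5 higher scaled by total count alone). Nfil3, which encodes a bZIP repressor of transcription, fell from 386 ± 2.02 to 172 ± 10.6 CPM (a log2 fold change of -1.16, SE 0.08, adjusted p = 1.00e-07 by edgeR). Ndrg1, a growth regulator also induced by hypoxia, fell by 1.48 on the log2 scale. The share of genes that passed was 58.3% in the amino acid supply list and 55.2% in this list, against the 44.6% of all genes given above.

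The ER and mitochondrial branches of the stress responses were read from lists of their own. Of 32 genes of the ATF6 and XBP1 arms 9 were lower, 1 was higher and 22 did not pass, a share of 31.2% that passed (6 lower and 9 higher scaled by total count alone). Ern1, which encodes the ER sensor IRE1, fell from 84.3 ± 2.35 to 47.3 ± 6.00 CPM (a log2 fold change of -0.83, SE 0.10, adjusted p = 1.48e-05 by edgeR). P4hb, a protein disulfide isomerase gene, and Crebrf each fell by 0.72 on the log2 scale. Of 15 tested mitochondrial stress genes 5 were lower and 4 higher, a share of 60% that passed (3 lower and 4 higher scaled by total count alone). Oma1, the mitochondrial protease that relays stress to eIF2 kinases, rose from 11.4 ± 1.04 to 19.5 ± 2.08 CPM (a log2 fold change of 0.77, SE 0.14, adjusted p = 0.000452 by edgeR), while the co-chaperonin gene Hspe1 and the protease gene Afg3l2 had log2 fold changes of -0.69 and -0.56.

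Beside Ddit4 and Sesn2, the list of mTORC1 and its nutrient inputs had 13 lower and 6 higher of 35 genes, and 7 lower and 10 higher scaled by total count alone. The share that passed was 54.3%. Flcn, which encodes folliculin, a regulator of the Rag GTPases, fell from 124 ± 19.9 to 38.4 ± 1.30 CPM (a log2 fold change of -1.69, SE 0.11, adjusted p = 9.62e-08 by edgeR). Its partner gene Fnip1 fell from 204 ± 13.5 to 102 ± 12.7 CPM (a log2 fold change of -0.998, SE 0.10, adjusted p = 3.08e-06 by edgeR). Rragb, a Rag GTPase gene, rose from 2.47 ± 0.310 to 5.27 ± 1.06 CPM (a log2 fold change of 1.09).

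Ddit4 and Sesn2 are also known to respond to hypoxia, p53 and, for Ddit4, glucocorticoids, and lists for these inputs were read beside them. Of 22 hypoxia genes 18 were lower and 1 was higher, a share of 86.4% that passed, with a median log2 fold change of -0.64 (15 lower and 1 higher scaled by total count alone). P4ha2, a collagen prolyl hydroxylase gene, fell from 112 ± 9.49 to 37.3 ± 7.87 CPM, and Adm, which encodes a peptide hormone, fell from 4.96 ± 1.31 to 0.975 ± 0.539 CPM. The 1 higher gene, named after its values were seen, was Egln3. It rose from 659 ± 20.6 to 993 ± 96.1 CPM (a log2 fold change of 0.59, SE 0.08, adjusted p = 8.32e-05 by edgeR). Pdk1, Hk2 and Ldha did not pass. Of 20 p53 targets 7 were lower and 2 higher, a share of 45% that passed, close to the 44.6% of all genes tested. Without idelalisib replicate 2, 11 were lower and 2 higher, and scaled by total count alone 6 were lower and 3 higher. Perp, Mdm2 and Ccng2 were among the lower ones, with log2 fold changes of -1.28, -0.75 and -0.74. In the glucocorticoid and FOXO list 6 of 18 genes were lower and 5 higher, a share of 61.1% that passed (4 lower and 6 higher scaled by total count alone). Klf2, a regulator of T cell trafficking, rose from 3.54 ± 0.677 to 15.7 ± 4.04 CPM, while Bcl6, the follicular helper regulator, fell from 31.7 ± 9.15 to 8.89 ± 2.15 CPM (edgeR adjusted p = 4.01e-06 and 0.00021). The glucocorticoid targets of this list, named after their values were seen, moved in both directions. Per1 and Tsc22d3 were lower, with log2 fold changes of -0.89 and -0.70. Fkbp5 and Klf9 were higher, at 0.36 and 0.44, and Dusp1 and Zbtb16 did not pass.

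**Figure D5:**
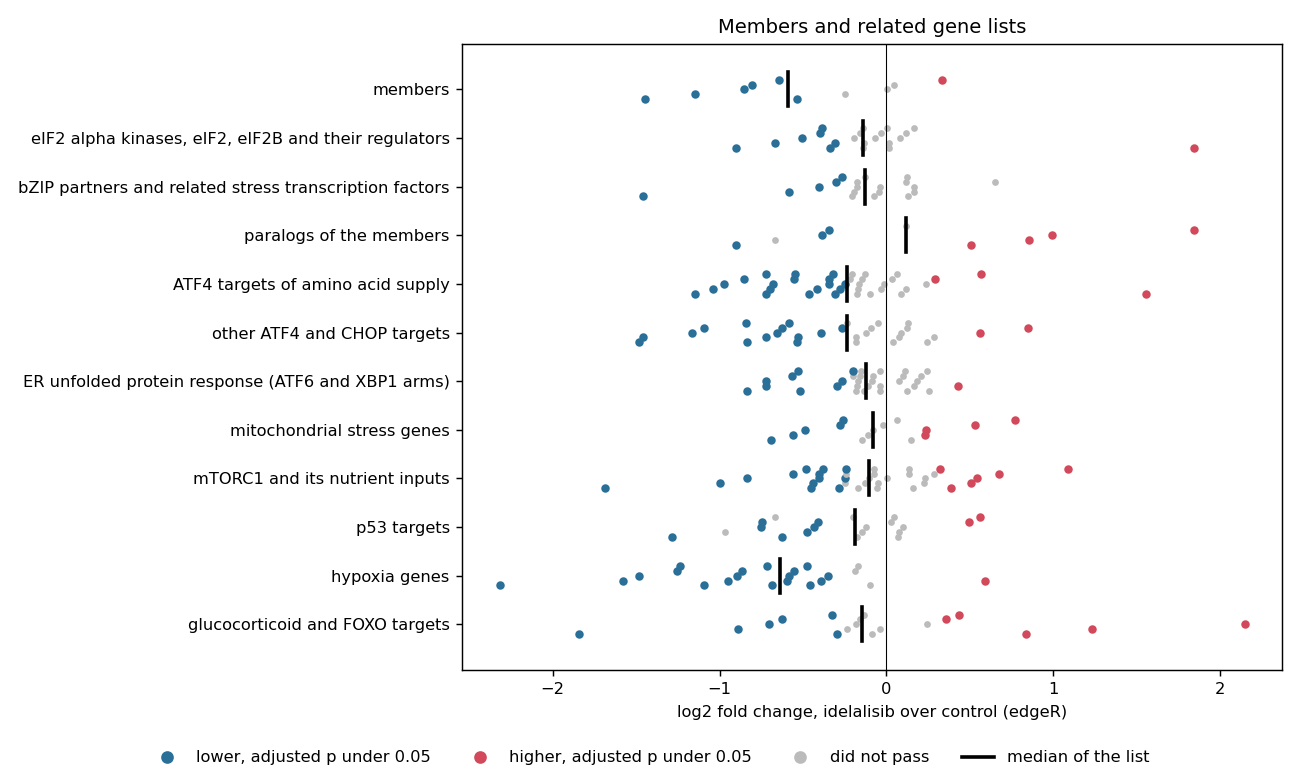
Log2 fold change, idelalisib over control (edgeR, 3 libraries per group), of every tested gene of the 10 stress response genes (top row) and of 11 related lists; points are genes, colour gives the call and black bars are medians. A gene in several lists is drawn in each. The medians are -0.59 for the 10 genes and -0.64 for hypoxia genes, and between -0.23 and 0.11 for the other lists.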

How the data were processed

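Poly(A) RNA from 3 control and 3 idelalisib cultures was sequenced, with the group and replicate number of each read from its title. The authors deposited raw read counts per gene, which per the submitters' processing notes were made with fastp, HISAT2 2.0.5 and featureCounts 1.5.0-p3 on mm10. The sources used here name neither a strand setting nor an annotation release, so reads of genes that overlap on opposite strands could be mixed. The gene length column of the deposited table was used for TPM. No pair of libraries was a duplicate (chi-square per degree of freedom at least 4.99).

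Genes were filtered with filterByExpr (minimum count 10, minimum total 15), scaled with TMM and tested by group alone in the robust quasi-likelihood F test of edgeR 4.0.16 (R 4.3.3). P-values were adjusted over all 14530 genes with the Benjamini-Hochberg method, and a gene passed at an adjusted p under 0.05. The SE is the log2 fold change over the square root of F. Symbols with several entries were represented by the entry with most counts. Scripts were tested on simulated data in which far fewer genes changed than passed here, as many up as down. That test does not cover how the scaling acts where this many genes change.

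The 10 genes, the lists and the alternatives were chosen with earlier results of these data known. Lists share genes, so their counts are not independent. Atf3 and Jdp2, for example, are in the bZIP list and in that of other ATF4 and CHOP targets, and Ndrg1 is in the latter and among hypoxia genes. The text names the 10 genes and, of each list, the 3 genes that passed with the largest change among those averaging at least 1 CPM; a list with fewer such genes was topped up with those of lowest p. One gene that this rule names and 1 marker are not reported here, and markers of cell types were named after their values were seen. Alternatives were 3 other scalings, DESeq2 1.42.0, limma-voom (limma 3.58.1), 2 other count filters, a replicate block, an adjusted p under 0.01 and leaving out each library. Motifs were searched in RefSeq promoter windows of GRCm38.p6, the assembly of mm10.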

Additional observations from a re-analysis of the deposited data

How the results depend on the processing

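Over 15 alternatives, Atf4, Atf5, Ddit3, Ppp1r15a, Nupr1 and Ddit4 were lower and passed the test in every one. Sesn2 was higher in all and passed in 11. At an adjusted p under 0.01, 2138 genes in all were higher in place of 3223, and 0 of the 10 genes in place of 1 (1 at an unadjusted p under 0.05, and 1 by DESeq2 and by limma-voom at the main threshold). Leaving out 1 library at a time, 0 to 1 of the 10 genes were higher and 6 to 7 lower. Scaled by total count alone, 4832 genes were higher and 2219 lower, so that 68.5% of calls were higher in place of 49.7%, and the median of all genes rose from 0.01 to 0.16. The log2 fold change of Trib3, 0.01, turned to -0.000101 with RLE scaling, -0.00267 with DESeq2, -0.00166 with the replicate block, -0.034 without control replicate 1, -0.06 without control replicate 3 and -0.12 without idelalisib replicate 3, with a range of -0.12 to 0.14 over the fits without 1 library. That of Chac1, 0.05, turned to -0.0711 without idelalisib replicate 3 (range -0.0711 to 0.15). The cause was not tested.

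Same-numbered libraries did not deviate together (r = 0.08, -0.13 and -0.10), so the numbers were not taken to pair them. With the replicate block 2910 genes were higher and 3051 lower, and 1 and 6 of the 10 genes. Of 330 counts over the related lists 41 moved by over 1.5 times, or to or from 0. The number higher ranged over 1 to 4 genes for the eIF2 list, 0 to 5 for bZIP partners, 2 to 6 for amino acid supply, 1 to 5 for other ATF4 and CHOP targets, 1 to 9 for the ER arms, 2 to 4 for mitochondrial stress and 4 to 10 for mTORC1. The number lower ranged over 4 to 8 for the eIF2 list, 3 to 6 for bZIP partners, 1 to 4 for paralogs, 3 to 5 for mitochondrial stress, 7 to 14 for mTORC1 and 6 to 11 for p53 targets. In 688 fits of the other named genes 1 changed direction (Tbx21, 0.02, at -0.00714 without control replicate 2, range -0.00714 to 0.0721 over the fits without 1 library), calls were lost in 14 (Slc38a2, Trib1, Sesn3, Ppp1r15b and Cd3e) and gained in 6 (Eif2ak1, Ighm and Cd4). The B cell markers other than Ighm, the glucocorticoid targets named above, and Egln3, Pdk1, Hk2 and Ldha were not among these fits.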
